A study of Mus musculus with 6 samples.

Results

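Intermediate filaments are rope-like polymers that give a cell its mechanical strength, and each cell type builds them from its own choice of subunits. In peripheral nerve, Schwann cells and other non-neuronal cells use vimentin, nestin, synemin and, in immature and non-myelinating Schwann cells, glial fibrillary acidic protein. Neurons fill their axons with the light, medium and heavy neurofilament proteins, peripherin and alpha-internexin, whose mRNAs are made mostly in cell bodies that lie outside the nerve. A-type lamins form the filament meshwork under the nuclear envelope of nearly all cells.

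Expression of these filament genes was examined by RNA-Seq in sciatic nerves of mice at postnatal day 14 (P14). Control mice carried floxed *Rnf40* alleles on both chromosomes (Rnf40 fl/fl), and *Rnf40ΔSC* mice carried the same alleles together with a Dhh::Cre transgene, which deletes the gene in developing Schwann cells and leaves it intact in the other cells of the nerve. *Rnf40* encodes a subunit of the ubiquitin ligase that places monoubiquitin on histone H2B. There were 3 control and 3 *Rnf40ΔSC* libraries, each from a pool of 3 nerves, on a mixed 129SvJ/C57Bl/6J background according to the labels, while the methods name a different background. The 10 genes were taken by symbol from 24015 gene rows and comprised 4 glial filament genes (*Vim*, *Gfap*, *Nes*, *Synm*), 5 axonal filament genes (*Nefl*, *Nefm*, *Nefh*, *Prph*, *Ina*) and the A-type lamin gene *Lmna*. The question was whether glial and axonal filament transcripts differed between the genotypes, and in which direction.

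Control libraries 1 to 3 held 1317167, 1992622 and 2468765 counts, and *Rnf40ΔSC* libraries 1 to 3 held 2184268, 1459387 and 2186710 counts. With TMM-scaled library sizes 1 read stood for 0.411 to 0.818 CPM (counts scaled to a fixed library size), so that genes with a few reads per library have wide errors. Normalised read counts are given on a common scale of 1887132 effective counts after TMM scaling. Fold changes are *Rnf40ΔSC* over control, and a gene was called lower or higher at an adjusted p of at most 0.05 in edgeR's quasi-likelihood test over the 11371 genes that passed a filter on low counts. *Rnf40ΔSC* library 3 stood apart from the other 2 of its group on the first 2 principal components and in its skeletal muscle transcripts (described with the marker genes).

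The deleted gene itself had 82, 116 and 165 *Rnf40* reads in control libraries 1 to 3, against 109, 75 and 118 in *Rnf40ΔSC* libraries 1 to 3. Its normalised read count was 129 ± 7.93 in control and 89.0 ± 2.15 in *Rnf40ΔSC* nerves (mean ± SD, n = 3 each), without overlap. The log2 fold change of *Rnf40* was −0.54 ± 0.14 (SE) with an adjusted p of 0.00243 in edgeR's quasi-likelihood test. The count covers the whole gene, including parts outside the floxed exons, and the transcripts of cells without Cre, so it checks the deletion only in part. When libraries were scaled by total counts alone, the *Rnf40* difference was −0.27 and was not called (adjusted p of 0.116 in edgeR's quasi-likelihood test).

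Of the 10 filament genes, 7 passed the filter on low counts. *Vim* and *Synm* were lower and *Gfap* was higher in *Rnf40ΔSC* nerves, whereas *Nes*, *Nefm*, *Nefh* and *Lmna* were not called. Among all genes tested, 16.2% were called lower and 15.5% higher. *Gfap* and *Nefm* passed the filter only through the *Rnf40ΔSC* libraries, so nothing is read from the count over members that passed. Non-overlapping groups were found for *Vim*, *Synm* and *Nefh*, where every *Rnf40ΔSC* library lay below every control library (21.6% of all genes tested), and for *Gfap* and *Nefm*, where every one lay above (22.0% of all genes tested). The stricter limits used in the study were a log2 difference of 0.8 or more in either direction and a mean count of 20 or more. The study used them with DESeq2, and here they were applied to the edgeR calls. With them only *Synm* remained called among the members, as lower. *Synm* was not called in DESeq2 (adjusted p of 0.124). Its log2 difference was under the 0.8 limit with total-count scaling and without control library 1, control library 2 or *Rnf40ΔSC* library 1. Those limits called 4.99% of tested genes lower and 3.65% higher. *Nefl*, *Prph* and *Ina* did not pass the filter, and a fit without it called none of them (adjusted p of 0.518, 0.511 and 0.317 in edgeR's quasi-likelihood test).

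The levels of the filament genes differed by orders of magnitude. Per kilobase of annotated exon, *Vim* stood first in control nerves at 1120 ± 21.7 CPM per kilobase (SD, n = 3). *Nes* followed at 98.9 ± 4.14 and *Lmna* at 26.9 ± 0.633 CPM per kilobase, and these first 3 genes were separated from each other and from the rest by far more than their spread. The next levels were 3.81 ± 0.609 for *Nefh* and 2.05 ± 0.520 CPM per kilobase for *Synm*, which did not overlap. *Nefl*, *Prph*, *Nefm*, *Gfap* and *Ina* came last with mean levels between 0.252 and 1.03 CPM per kilobase in control nerves, and neighbours in the order from *Synm* downwards overlapped in their libraries. In *Rnf40ΔSC* nerves the first 4 places were the same, with *Vim* at 758 ± 61.3, *Nes* at 99.4 ± 8.22, *Lmna* at 26.4 ± 3.36 and *Nefh* at 2.49 ± 0.286 CPM per kilobase. The *Prph* libraries that came next spanned 0.333 to 3.20 CPM per kilobase and overlapped both neighbours. *Gfap* moved from place 9 to place 6 at 1.40 ± 0.231 CPM per kilobase, and *Synm* from place 5 to place 7 at 1.09 ± 0.111 CPM per kilobase. *Gfap* thus remained among the scarce transcripts in both genotypes.

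Vimentin is the main filament protein of mesenchymal cells and of Schwann cells. *Vim* had 3265, 4632 and 5803 reads in control, against 4168, 3072 and 3946 in *Rnf40ΔSC* libraries. After scaling these corresponded to 5039, 4905 and 4855 normalised counts in control and 3354, 3600 and 3060 in *Rnf40ΔSC* nerves, so that the control libraries lay close together and all *Rnf40ΔSC* libraries were below them. The means were 4933 ± 95.5 and 3338 ± 270 (SD, n = 3 each). *Vim* was 1.48-fold lower in *Rnf40ΔSC* nerves, with a log2 fold change of −0.56 ± 0.08 (SE) and an adjusted p of 2.53e-07 in edgeR's quasi-likelihood test. Fewer cells of a type and less RNA per cell cannot be told apart from whole-nerve RNA alone. The paper counted cells in stained sections and reports a comparable share of Schwann cells, with slightly more cells in *Rnf40ΔSC* nerves at P14. The *Vim* call held under every alternative fit, with log2 fold changes from −0.62 to −0.30, the smallest being that with total-count scaling, but its size is under the fold limit used in the study.

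Nestin is a large filament protein of progenitor cells that is also made by Schwann cells and that assembles together with vimentin. There were 812, 1117 and 1382 *Nes* reads in control and 1355, 1062 and 1646 in *Rnf40ΔSC* libraries. The normalised means of 1197 ± 50.2 and 1204 ± 99.5 (SD, n = 3 each) differed by less than the spread between libraries. *Nes* had a log2 fold change of 0.01 with a 95% confidence interval from −0.17 to 0.18, and its adjusted p in edgeR's quasi-likelihood test was 0.956. With total-count scaling *Nes* was called higher, at 0.28 with an adjusted p of 0.0119 in edgeR's quasi-likelihood test, a value that lies next to the 0.266 by which that scaling raised the median gene.

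Because *Vim* and *Nes* are read in the same library, their ratio does not depend on the scaling between libraries. Control libraries held 4.02, 4.15 and 4.20 *Vim* reads per *Nes* read, and *Rnf40ΔSC* libraries held 3.08, 2.89 and 2.40. All 3 *Rnf40ΔSC* ratios lay below all 3 control ratios. The mean log2 ratio differed by −0.57, with p = 0.1 in a two-sided exact permutation test, the smallest p that 3 against 3 libraries can give. The pair was chosen after its values were seen. *Vim* reads made up 76.5%, 76.7% and 77.1% of the reads of all 10 genes in control libraries and 71.1%, 70.5% and 65.9% in *Rnf40ΔSC* libraries. The share of *Nes* was 18.4% to 19.0% in control and 23.1% to 27.5% in *Rnf40ΔSC* libraries.

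Glial fibrillary acidic protein marks immature and non-myelinating Schwann cells in peripheral nerve. Only 1, 5 and 0 *Gfap* reads were counted in the control libraries, against 12, 9 and 17 in the *Rnf40ΔSC* libraries. Each *Rnf40ΔSC* library exceeded each control library, at mean normalised counts of 11.1 ± 1.84 against 2.28 ± 2.72 (SD, n = 3 each). Summed over libraries, 38 reads against 6 gave a ratio of 5.22 after scaling, with an exact 95% interval of 2.19 to 15.1 that covers counting error only. The log2 fold change of *Gfap* was 2.31 ± 0.62 (SE), with an adjusted p of 0.00361 in edgeR's quasi-likelihood test. Since 0 control libraries and 3 *Rnf40ΔSC* libraries reached the filter on low counts, the gene was also fitted without any filter, which gave 2.31 and an adjusted p of 0.00181 in edgeR's quasi-likelihood test. The call was lost without control library 3 (1.55, adjusted p of 0.0746 in edgeR's quasi-likelihood test), and the estimate was 4.08 without control library 2. In DESeq2 *Gfap* was called only just, at 2.34 ± 0.885 (SE) and an adjusted p of 0.0492. Relative to vimentin there were 0.306, 1.08 and 0 *Gfap* reads per 1000 *Vim* reads in control and 2.88, 2.93 and 4.31 in *Rnf40ΔSC* libraries. Filaments of the glial class were therefore dominated by *Vim* and *Nes* reads in both genotypes.

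**Figure D1:**
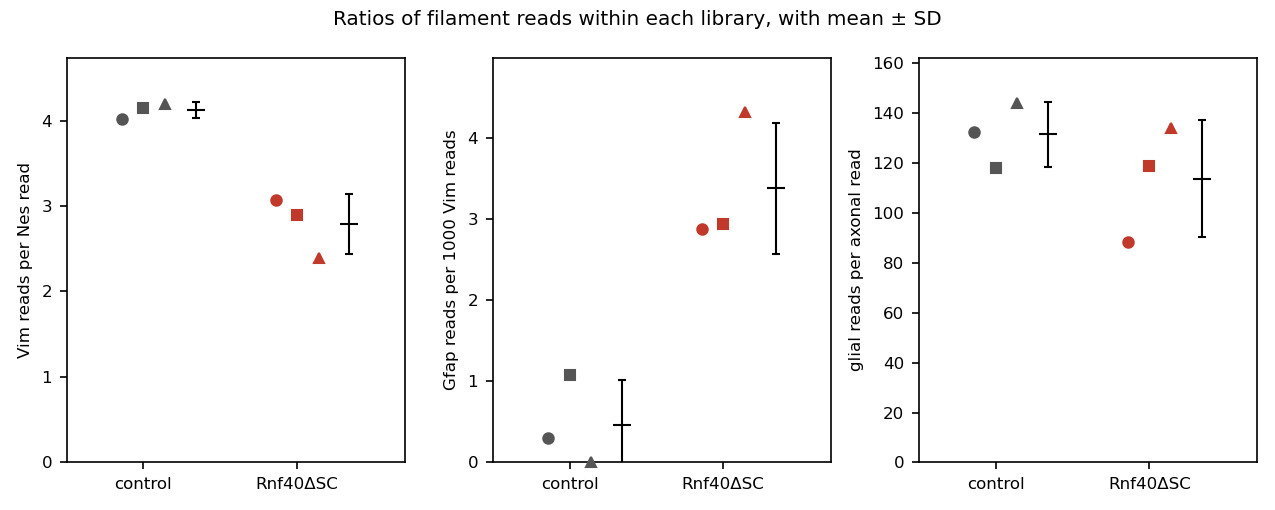
Ratios of filament reads within each library (y axes start at 0; grey control, red Rnf40ΔSC; black, mean and SD of 3 libraries, cut at 0). Vim reads per Nes read were 4.02 to 4.20 in control and 2.40 to 3.08 in Rnf40ΔSC libraries, Gfap reads per 1000 Vim reads were all higher in Rnf40ΔSC libraries, and glial reads per axonal read overlapped between the groups.

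Synemin cannot form filaments alone and joins vimentin or desmin filaments to other structures. *Synm* had 23, 33 and 26 reads in control and 18, 15 and 22 in *Rnf40ΔSC* libraries. Scaled to the common size, all *Rnf40ΔSC* libraries fell below all control libraries, with means of 16.4 ± 1.66 and 30.7 ± 7.78 (SD, n = 3 each). *Synm* was 1.84-fold lower, at −0.88 ± 0.29 (SE) on the log2 scale, and edgeR's quasi-likelihood test gave an adjusted p of 0.0204. The *Synm* call was lost without control library 1, control library 2 or *Rnf40ΔSC* library 1 (log2 fold changes of −0.78, −0.75 and −0.78, adjusted p of 0.0788, 0.109 and 0.0803 in edgeR's quasi-likelihood test). It was lost as well with total-count scaling, at −0.61 and an adjusted p of 0.0976 in edgeR's quasi-likelihood test, and in DESeq2, at −0.88 and an adjusted p of 0.124.

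Of the 4 glial genes, 2 were thus called lower, 1 was called higher and 1 was not called, and the bases before their start sites are shown for comparison. RefSeq windows of the promoter table (GRCm38.p6) were available for 7 members, and the 250 bases upstream of each start were found once in the mm9 genome (NCBIM37). Positions below are mm9, and capitals mark matches to the motifs searched. For *Vim* 30 bases around the TATA box are shown (chr2:13495898-13495927, plus strand), since an exon of a longer annotated *Vim* transcript covers the window. The *Gfap* stretch (chr11:102758515-102758664, minus strand) lies in an intron of the longest annotated *Gfap* transcript. The *Nes* stretch (chr3:87774865-87774999, plus strand) and the *Synm* stretch (chr7:74904629-74904778, minus strand) lie upstream of all annotated exons of those genes.
Vim: aacagtgtTATAAAagcagcgcccttggcg
Gfap: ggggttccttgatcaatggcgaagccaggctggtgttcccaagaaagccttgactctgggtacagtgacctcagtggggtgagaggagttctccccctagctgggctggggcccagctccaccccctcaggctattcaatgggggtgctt
Nes: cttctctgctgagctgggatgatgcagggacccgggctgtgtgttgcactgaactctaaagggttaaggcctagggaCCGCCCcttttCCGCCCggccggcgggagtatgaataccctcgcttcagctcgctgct
Synm: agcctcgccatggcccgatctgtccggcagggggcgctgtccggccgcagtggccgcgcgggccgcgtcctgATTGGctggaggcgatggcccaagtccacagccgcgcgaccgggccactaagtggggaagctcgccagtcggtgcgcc

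In these windows 6 short motifs were searched on both strands. The TATA box was spelled TATAAA, the box for nuclear factor Y was spelled CCAAT, and the GC box was spelled GGGCGG. The motif of AP-1 factors was written as TGANTCA, that of Egr factors as GCGNGGGCG, and that of SOX factors as AACAAT. The *Vim* window held a TATA box beginning 32 bases before the start and nuclear factor Y boxes at 196 and 94 bases. The *Nes* window held GC boxes at 73 and 62 bases before the start, and the *Synm* window a nuclear factor Y box at 78 bases. None of the 6 motifs occurred in the *Gfap* window. Among 32851 windows of the same length, 12.4% held the TATA box, 33.8% the nuclear factor Y box, 32.7% the GC box, 6.75% the AP-1 motif, 4.70% the Egr motif and 9.42% the SOX motif. The longer GCGNGGGCG motif contains letters of the GC box, so these can overlap. A match is a description of the letters in the window only.

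Neurofilaments set the caliber of myelinated axons, and the heavy subunit carries the long phosphorylated tail. *Nefh* was the most abundant axonal filament transcript in the nerve, with 22, 24 and 32 reads in control and 25, 17 and 21 in *Rnf40ΔSC* libraries. After scaling, the *Rnf40ΔSC* libraries all lay below the control libraries, at 18.8 ± 2.16 against 28.7 ± 4.59 (SD, n = 3 each). The log2 fold change of *Nefh* was −0.59 ± 0.28 (SE) and missed the threshold, with an adjusted p of 0.105 in edgeR's quasi-likelihood test. Its summed reads of 63 against 78 corresponded to a scaled ratio of 0.665 (exact 95% interval 0.469 to 0.939, counting error only).

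The medium subunit gene *Nefm* had 3, 8 and 10 reads in control and 12, 9 and 11 in *Rnf40ΔSC* libraries. Its log2 fold change was 0.34 with a 95% confidence interval from −0.55 to 1.23, and the adjusted p in edgeR's quasi-likelihood test was 0.599. The light subunit gene *Nefl* had 2, 11 and 6 reads in control and 6, 7 and 1 in *Rnf40ΔSC* libraries, which overlapped. The scaled ratio for *Nefl* was 0.607 (exact 95% interval 0.282 to 1.28), and it was 0.951 without control library 2, 0.915 without *Rnf40ΔSC* library 3 and 0.407 without *Rnf40ΔSC* library 2. In the GENCODE vM1 annotation of mm9 *Nefl* lies within the span of *Nefm* on chromosome 14, and 1108 exon bases of *Nefl* (32.8% of its exon length) overlap *Nefm* on the opposite strand. The strand setting of the counting is not given in the sources used here, so the division of reads between them is uncertain.

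Peripherin is typical of neurons with axons in peripheral nerves. *Prph* reads numbered 1, 6 and 2 in control and 14, 1 and 4 in *Rnf40ΔSC* libraries. The scaled ratio of 1.74 (exact 95% interval 0.749 to 4.36) became 0.728 without *Rnf40ΔSC* library 1 and 3.44 without control library 2. Alpha-internexin is expressed early in neuronal development. *Ina* reads numbered 3, 0 and 0 in control and 6, 1 and 5 in *Rnf40ΔSC* libraries, and the scaled ratio of 3.29 had an exact 95% interval from 0.889 to 18.2. The *Ina* ratio was 1.88 without control library 3 and 2.17 without control library 2. Of the *Ina* exon length, 14.1% overlaps *Nt5c2* on the opposite strand. No difference was called for *Nefl*, *Prph* or *Ina*, and their wide intervals leave differences in either direction open.

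Glial and axonal filaments were then compared as classes. The 4 glial genes together reached 3354, 3247 and 3197 CPM in control and 2368, 2582 and 2314 CPM in *Rnf40ΔSC* libraries, so that the groups did not overlap. This sum consisted mostly of *Vim* reads, and without *Vim* the groups overlapped. The 5 axonal genes together reached 25.4, 27.5 and 22.2 CPM in control and 26.9, 21.7 and 17.3 CPM in *Rnf40ΔSC* libraries, and these groups overlapped. There were 132, 118 and 144 glial reads per axonal read in control and 88.1, 119 and 134 in *Rnf40ΔSC* libraries, also overlapping. A difference between the classes was therefore not resolved beyond the spread between libraries. The 10 genes together took 0.303% to 0.324% of all counts in control and 0.268% to 0.299% in *Rnf40ΔSC* libraries.

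*Lmna* encodes lamins A and C, which stiffen the nucleus. It had 136, 206 and 262 reads in control and 244, 167 and 313 in *Rnf40ΔSC* libraries. The normalised means were 216 ± 5.08 and 212 ± 27.0 (SD, n = 3 each), with overlapping groups. The log2 fold change of *Lmna* was −0.02 with a 95% confidence interval from −0.25 to 0.20, and the adjusted p in edgeR's quasi-likelihood test was 0.888. With total-count scaling it was 0.24, next to the shift of the median gene, with an adjusted p of 0.0843 in edgeR's quasi-likelihood test.

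Further intermediate filament genes were examined as a list of 19, of which 9 could be tested. Of these, 1 was called higher and 1 lower, and the median log2 fold change was −0.05 (2 higher, 0 lower and 0.22 with total-count scaling, against medians of all tested genes of −0.0024 and 0.26). The B-type lamin gene *Lmnb1* had 19, 25 and 25 reads in control and 63, 46 and 67 in *Rnf40ΔSC* libraries. It rose by 1.06 ± 0.22 (SE) on the log2 scale, with an adjusted p of 0.000317 in edgeR's quasi-likelihood test, while its paralogue *Lmnb2* had 22, 35 and 48 against 35, 30 and 58 reads and was not called. *Iffo2* was lower by a log2 fold change of −0.73 (adjusted p of 0.00732 in edgeR's quasi-likelihood test; not called with total-count scaling, adjusted p of 0.0794, without control library 2, 0.0609, or in DESeq2, 0.077). Desmin, the muscle filament protein, was the most abundant of the list, and *Des* had 89, 131 and 111 reads in control against 34, 21 and 207 in *Rnf40ΔSC* libraries. Among the keratin genes, *Krt17* was chosen after its values were seen: it had 0, 0 and 0 reads in control and 4, 10 and 6 in *Rnf40ΔSC* libraries and did not pass the filter. *Krt17* was called higher in DESeq2 (adjusted p of 0.00871) and in edgeR's quasi-likelihood test without a filter (adjusted p of 0.000598), so that these fits had 2 higher genes in the list, with 0 and 1 lower. With 0 reads in every control library the fold change of *Krt17* has no measured size, and none is given. *Krt8* had 0 reads in all libraries.

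Plakins tie intermediate filaments to other cytoskeletal fibres, to cell junctions and to the nucleus. Of 8 linker genes, 4 were tested, 1 was called higher and 1 lower, with a median log2 fold change of −0.22 (0.04 with total-count scaling). Plectin joins filaments to junctions, and *Plec* had 814, 1177 and 1481 reads in control and 1007, 714 and 1363 in *Rnf40ΔSC* libraries. *Plec* was lower by a log2 fold change of −0.47 ± 0.09 (SE), with an adjusted p of 0.000155 in edgeR's quasi-likelihood test, a call that total-count scaling ended (adjusted p of 0.0926). Dystonin is the related linker between filaments, actin and microtubules. *Dst* had 618, 951 and 1131 reads in control and 1736, 1184 and 1697 in *Rnf40ΔSC* libraries, and rose by 0.50 ± 0.08 (SE) on the log2 scale with an adjusted p of 1.52e-05 in edgeR's quasi-likelihood test.

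Genes for filament turnover and transport included small heat shock proteins, calpains and kinesin motors that move neurofilaments. Here 7 of 10 tested genes of a list of 12 were called lower and 0 higher, against 16.2% lower and 15.5% higher among all genes tested, and their median log2 fold change was −0.76. With total-count scaling 6 were lower and 1 was higher, at a median of −0.50. The list was chosen with earlier results of these data known, so its counts are a description of these genes only. The chaperone gene *Hspb8* had 27, 49 and 45 reads in control and 18, 5 and 26 in *Rnf40ΔSC* libraries. Its log2 fold change was −1.61 ± 0.29 (SE), with an adjusted p of 3.92e-05 in edgeR's quasi-likelihood test. The kinesin heavy chain gene *Kif5c* had 43, 67 and 68 reads against 33, 23 and 32, and a log2 fold change of −1.30. Its relative *Kif5a* had 49, 107 and 120 reads against 45, 50 and 61, and a log2 fold change of −1.07, whereas *Kif5b*, made in most cell types, was not called at −0.21. The chaperone gene *Cryab*, an abundant transcript of myelinating Schwann cells, was the most abundant of the list and lower by a log2 fold change of −0.46, with an adjusted p of 7.81e-05 in edgeR's quasi-likelihood test (0.0683 with total-count scaling). The calpain genes *Capn1* and *Capn2* and the ubiquitin ligase gene *Trim2* were also called lower, at −1.03, −0.68 and −0.84.

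**Figure D2:**
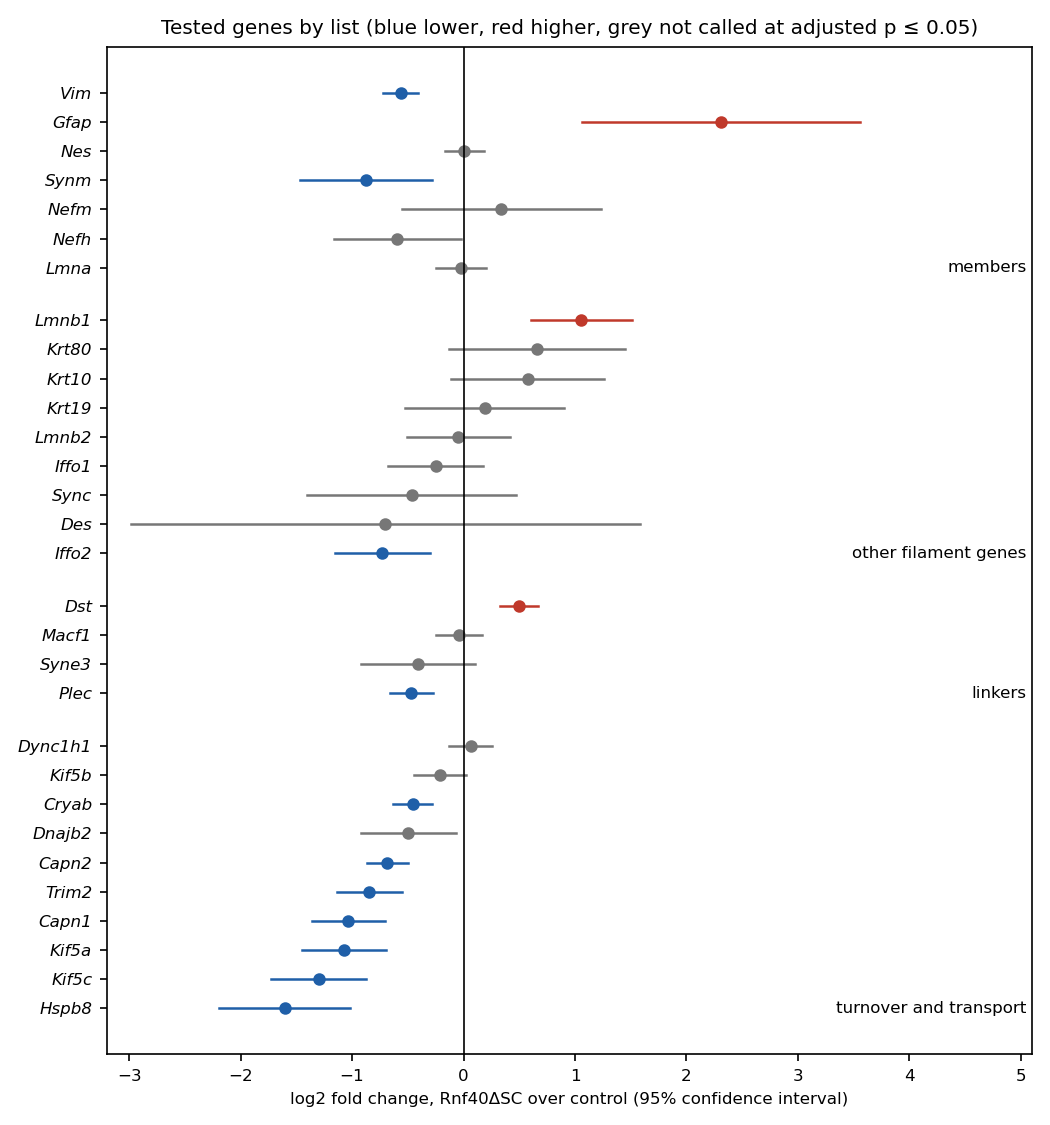
Log2 fold change of Rnf40ΔSC over control (x axis) with 95% confidence intervals for the tested filament members, other filament genes, linkers and genes of filament turnover and transport (y axis, 1 gene per line). Blue genes were called lower and red genes higher at an adjusted p of at most 0.05, grey genes were not called, and 7 of the 10 turnover and transport genes were blue.

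Lamins are anchored and processed by a group of nuclear envelope proteins. Of 14 such lamina partner genes, all were tested, 1 was called lower and 0 were called higher, and the median log2 fold change was −0.05. In this list, as in the turnover and fibroblast lists, 0 genes were higher at an unadjusted p under 0.05 in edgeR's quasi-likelihood test, and 0 were called higher in DESeq2. With total-count scaling 0 were lower, 4 were higher and the median was 0.22. The exception was *Icmt*, the methyltransferase that modifies prelamin A, with a log2 fold change of −0.37 and an adjusted p of 0.0342 in edgeR's quasi-likelihood test. It was not called in DESeq2, nor without control library 2, control library 3, *Rnf40ΔSC* library 1 or *Rnf40ΔSC* library 2, where 0 genes of the list were lower. *Tmpo*, the most abundant, was at 0.06. Actin and tubulin genes, the other cytoskeletal polymers, had 4 of 10 tested genes lower and 1 higher at a median of −0.42, and 1 lower and 1 higher with total-count scaling. *Actb* was higher at 0.25, and *Tubb4b*, *Tubb5* and *Tuba1a* were lower at −0.64, −0.54 and −0.53, of which only *Tubb5* was still lower with total-count scaling. Leaving out 1 library gave 1 to 4 lower genes and 0 to 1 higher, with 1 lower without control library 2, and DESeq2 gave 2 lower and 1 higher. The calls of *Actb*, *Tubb4b* and *Tuba1a* were each lost in 4 of 6 leave-outs, and *Tubb5* kept its call in all.

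The cell types that could supply filament transcripts were checked by marker genes. Beside each marker list stands the share over all genes tested, of which 16.2% were called lower and 15.5% higher. Myelin genes were lower in 11 of 11 cases at a median log2 fold change of −1.95, and their summed level was 144000, 165000 and 156200 CPM in control and 40470, 38270 and 38970 CPM in *Rnf40ΔSC* libraries. Genes of the whole Schwann cell lineage were lower in 5 of 5 cases at a median of −0.79, with summed levels of 3067, 3584 and 3305 CPM in control and 2059, 2065 and 1866 CPM in *Rnf40ΔSC* libraries. The call of *Vim*, at −0.56, thus stood beside lower levels of general Schwann cell markers in all 3 *Rnf40ΔSC* libraries. In the stained nerve sections of the paper, the share of Schwann cells among all cells was comparable in both genotypes.

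Immature and non-myelinating Schwann cell genes, with which *Gfap* is usually grouped, included calls in both directions. The list also held *Pou3f1*, whose product Oct6 the paper uses to identify promyelinating Schwann cells. Counts, medians and sums that include *Pou3f1* therefore do not describe immature and non-myelinating genes alone. Of 11 tested, 4 were called higher and 4 lower, at a median log2 fold change of −0.29 (5 higher, 4 lower and −0.027 with total-count scaling). With at least 10 counts in every library 9 were tested, with 4 higher, 3 lower and a median of 0.121, so the sign of the median depended on the filter. The summed level was 1087, 1124 and 1099 CPM in control and 1536, 1897 and 1522 CPM in *Rnf40ΔSC* libraries. Without *Pou3f1*, the sums overlapped, at 874, 922 and 930 CPM against 819, 918 and 804 CPM. *Pou3f1*, the most abundant, was higher at 2.05 and *Sox2* at 1.96 on the log2 scale. *Gfra3*, a receptor subunit of non-myelinating Schwann cells, had 25, 19 and 13 reads in control and 1, 0 and 1 in *Rnf40ΔSC* libraries. It passed the filter through the control libraries only, and without a filter edgeR's quasi-likelihood test gave −4.93 with an adjusted p of 2.37e-12. *Ncam1* and *Foxd3* were also higher, and *L1cam*, *Scn7a* and *Ngfr* lower. The call of *Gfap* was therefore not shared by all genes of this list.

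*Vim* is also made by fibroblasts, vascular cells and macrophages. Over all 11371 genes tested, 16.2% were called lower and 15.5% higher. With total-count scaling 886 of them were called lower and 3740 higher. Fibroblast genes were lower in 8 of 11 cases and higher in 0, at a median of −0.37, and their sum, led by *Col3a1*, was 54300, 52990 and 57370 CPM in control and 40520, 38860 and 38340 CPM in *Rnf40ΔSC* libraries. With total-count scaling 5 were lower and 1 higher. Endothelial genes were lower in 5 of 9 cases at a median of −0.51 (1 of 9 with total-count scaling), with sums led by *Cdh5* of 790, 703 and 787 CPM against 513, 518 and 598 CPM. Pericyte and smooth muscle genes were lower in 6 of 10 cases at −0.59 (4 with total-count scaling), with sums led by *Pdgfrb* of 1297, 979 and 1117 CPM against 701, 677 and 848 CPM. Perineurial genes were lower in 3 of 4 cases at −0.47 (2 with total-count scaling), with sums led by *Itgb4* of 851, 988 and 974 CPM against 562, 461 and 512 CPM. Much of that gap came from *Itgb4*, at −1.69, and without it the sums were 433, 511 and 484 CPM against 414, 340 and 352 CPM. The call of *Cldn1* was lost in 4 of 6 leave-outs, and *Itgb4* and *Slc2a1* kept theirs in all. Macrophage genes were lower in 6 of 10 cases at −0.46 (2 with total-count scaling, 3 in DESeq2), with sums led by *Csf1r* of 506, 471 and 517 CPM against 350, 348 and 351 CPM. In the stained sections of the paper, by contrast, macrophages positive for Iba1 were more numerous in *Rnf40ΔSC* nerves at P14. The Iba1 gene *Aif1* had 2, 3 and 0 reads in control and 0, 3 and 1 in *Rnf40ΔSC* libraries and was not tested. In its RNA-Seq at this age the paper saw no sign of a substantial rise in immune response genes. No gene of the endothelial, pericyte, perineurial or macrophage lists was called higher in edgeR's quasi-likelihood test with either scaling. The part of each of these cell types in the lower *Vim* level was not tested.

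Adipocyte genes were lower in 2 of 5 cases at a median of −0.65 (1 lower gene with total-count scaling). There was 1 lower gene without control library 3 and there were 3 without control library 1. The median was −0.4 without *Rnf40ΔSC* library 3. Adipocyte sums, led by *Fabp4*, were 996, 756 and 1288 CPM in control and 842, 756 and 591 CPM in *Rnf40ΔSC* libraries, which overlapped. Without *Fabp4* the adipocyte sums did not overlap, at 137, 112 and 159 CPM against 78.9, 84.5 and 74.4 CPM. Among the marker lists, skeletal muscle genes showed the largest difference between libraries of 1 genotype. Their sum, led by *Myh4*, was 4538, 3487 and 2553 CPM in control, 98.9 and 253 CPM in *Rnf40ΔSC* libraries 1 and 2, and 3296 CPM in *Rnf40ΔSC* library 3. With all libraries the median log2 fold change was −1.27, 0 of the 14 were called in edgeR's quasi-likelihood test, 0 had an unadjusted p under 0.05 and 0 were called in DESeq2, whereas 12 were called lower without *Rnf40ΔSC* library 3. *Des* was likewise low in *Rnf40ΔSC* libraries 1 and 2 only, and its log2 fold change of −0.70 had a 95% confidence interval from −2.98 to 1.58. Without *Rnf40ΔSC* library 3, *Des* was called lower at −2.19, with an adjusted p of 4.47e-12 in edgeR's quasi-likelihood test. The calls of *Vim*, *Gfap* and *Synm* held without this library.

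**Figure D3:**
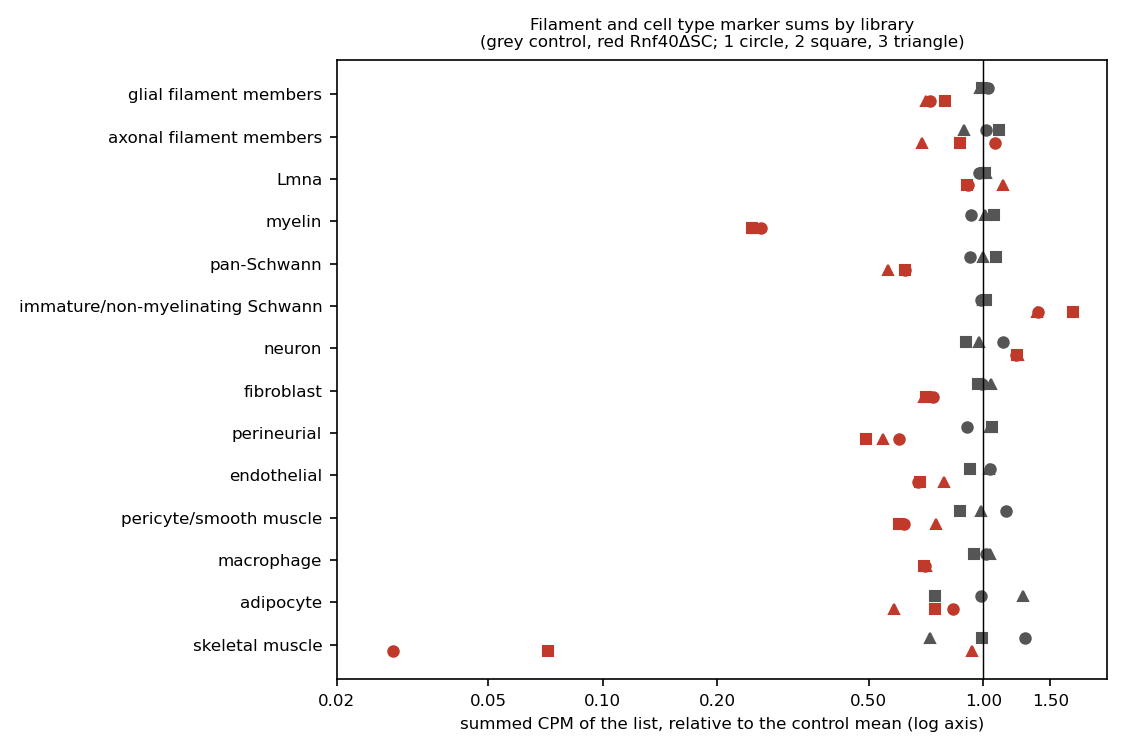
Summed CPM of the filament classes, Lmna and each marker list (y axis) in every library, relative to the mean of the 3 control libraries (x axis, log scale; grey control, red Rnf40ΔSC). The glial filament sum was lower in all Rnf40ΔSC libraries, as were the myelin, pan-Schwann, fibroblast and vascular sums, and skeletal muscle was low in Rnf40ΔSC libraries 1 and 2 only.

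Neuronal markers were checked because axonal filament mRNA in the nerve could come from neurons. Of 20 neuron genes 7 could be tested, 4 were called higher and 1 lower at a median log2 fold change of 0.72 (0.99 with total-count scaling), and the summed level was 178, 143 and 155 CPM in control and 194, 194 and 195 CPM in *Rnf40ΔSC* libraries. *Isl1*, of sensory and motor neurons, and *Chat*, of motor neurons, had 0 reads in every library, and the pan-neuronal *Rbfox3* had at most 1. *Dcx* had 1, 1 and 2 reads in control and 17, 15 and 16 in *Rnf40ΔSC* libraries, a log2 fold change of 3.21 with an adjusted p of 3.21e-05 in edgeR's quasi-likelihood test. *Map2* was higher at 1.57 and *Snap25* at 1.5, while *Thy1*, the most abundant of the list, was lower at −0.68. *Dcx* and *Snap25* reached the filter on low counts in the *Rnf40ΔSC* libraries alone, and *Snap25* was not called in DESeq2 (adjusted p of 0.0526). For that reason nothing is read from the count and median over the neuron genes that passed. Without a filter 18 neuron genes entered the fit, with 4 higher, 1 lower and a median of 0.861. Requiring at least 10 counts in every library left 4 of them, with 2 higher, 1 lower and a median of 0.425. Of all genes in the main fit, 15.5% were called higher and 16.2% lower. Astrocyte and oligodendrocyte genes of the central nervous system were few: 3 of 7 were tested, with *Gja1* and *Aldh1l1* lower at −0.36 and −0.92 (neither with total-count scaling or in DESeq2, and lost in 4 and 2 of 6 leave-outs) and *Slc1a2* higher at 2.1. Without a filter *Aqp4* and *Mobp* were also called lower, at −1.62 and −2.74 (adjusted p of 0.0257 and 0.0022 in edgeR's quasi-likelihood test), and neither was in DESeq2. *Aqp4* had 21, 9 and 8 reads in control and 1, 0 and 15 in *Rnf40ΔSC* libraries and was not called in any of the 4 leave-outs that tested it. Like the skeletal muscle sum, *Aqp4* was low in *Rnf40ΔSC* libraries 1 and 2 only, and the cell source of its reads was not tested. Their sum, led by *Gja1*, was 122, 136 and 137 CPM in control and 114, 100.6 and 105 CPM in *Rnf40ΔSC* libraries, and the oligodendrocyte gene *Mog* had 1 read in all. Astrocytes are the cells in which *Gfap* is best known, and the part of central glia in its reads was not tested.

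For the tested glial and the tested axonal member with the largest absolute log2 fold change, the genes with the most similar profile over the 6 libraries were listed among 6348 tested genes with a mean count of at least 50. *Gfap* was followed most closely by *Sec22b*, *Colgalt2* and *Rabl6*, with Pearson correlations of log2 CPM of 0.991, 0.987 and 0.985. *Nefh* was followed by *Diap2*, *Spp1* and *Igsf8*, with correlations of 0.992, 0.991 and 0.987. Of the 6348 genes compared, 51 exceeded 0.95 for *Gfap* and 52 for *Nefh*, and the values are given as a description only.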

How the data were processed

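The authors prepared RNA from pooled P14 sciatic nerves, sequenced it on an Illumina HiSeq instrument, aligned reads to mm9 with TopHat and deposited raw read counts per gene made from uniquely mapped reads with HTSeq. The processing notes of the submitters also name Bowtie2 2.1.0, DESeq2 and mm10. The labels and the methods name different library kits and strain backgrounds, and the gene annotation and strand setting of the counting are not given in the sources used here. The labels call the libraries biological replicates.

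Counts were analysed with edgeR 4.0.16 in R 4.3.3: filterByExpr (about 10 reads in at least 3 libraries), TMM scaling, a robust quasi-likelihood fit on genotype alone and Benjamini-Hochberg adjustment over all 11371 genes tested. The steps were tested on simulated counts. DESeq2 1.42.0, other scalings, other filters, a replicate block and leaving out each library served as alternatives. Read ratios have exact binomial intervals that cover counting error only. Libraries held 1317167 to 2468765 counts. Gene positions and exon lengths come from GENCODE vM1 on mm9 and may differ from the annotation the authors used. Promoter sequences come from RefSeq.

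The members and gene lists were chosen with earlier results of these data known. Named genes were the members, *Rnf40*, and in each list the 3 called genes with the largest absolute log2 fold change and the most abundant gene, plus, among tested members, for the glial and the axonal one with the largest absolute log2 fold change, the 3 tested genes with the highest correlation of log2 CPM. Some genes that this rule would name are not reported here. Genes named beyond the rule were chosen after their values were seen. The lists covered other intermediate filaments, filament linkers, lamina partners, filament turnover and transport, actin and tubulin, and markers of neurons, Schwann cell stages, myelin, fibroblasts, perineurial, endothelial, pericyte and smooth muscle, skeletal muscle, macrophage, adipocyte and central glial cells.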

Additional observations from a re-analysis of the deposited data

How the results depend on the processing

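*Vim* kept its direction and its call under all alternatives except the fold limit of the study, and *Gfap* its direction. Total-count scaling raised the median gene by 0.266 on the log2 scale and moved the share of lower among called genes from 51.2% to 19.2%. It called 1 member lower (*Vim*) and 2 higher (*Gfap*, *Nes*), and 886 genes lower and 3740 higher, against 1841 and 1757. It also put *Lmna* at 0.24. DESeq2 called 1 member lower (*Vim*) and 1 higher (*Gfap*, adjusted p of 0.0492), and 1178 genes lower and 1110 higher. A filter of at least 10 counts in every library removed *Gfap* and called 0 members higher. The limits of the study on fold and mean count, applied to the edgeR calls, called 1 member lower and 0 higher, and 567 genes lower and 415 higher.

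Leaving out each library in turn gave 1 to 2 members lower and 0 to 1 higher, and 1442 to 1992 genes lower and 1294 to 1916 higher. The log2 fold changes then ran from −0.027 to 0.087 for *Nes*, from −0.13 to 0.043 for *Lmna* and from 1.55 to 4.08 for *Gfap*. The *Ina* ratio had no value without control library 1, which held all control reads. Apart from the limits of the study, the losses of *Synm* and *Gfap* given above, the cause of which was not tested, and the call of *Nes* with total-count scaling, no other tested member gained or lost a call. Members that did not pass the filter have ratios in place of log2 fold changes. Without a filter the log2 fold changes were −0.66 for *Nefl*, 0.75 for *Prph* and 1.55 for *Ina*, none called.

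A fit with the replicate number as a block called 2 members lower and 1 higher, and 1837 genes lower and 1727 higher, and changed no call of a member. Same-numbered libraries did not deviate together (correlations of −0.095, −0.015 and −0.062), so the numbers were not taken to pair the samples. List counts with total-count scaling and without *Rnf40ΔSC* library 3 were added after the data were seen, as were those with each other library left out, in DESeq2 and without a filter, and list sums without the most abundant gene.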
